A study of Homo sapiens with 12 samples.

Results

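The 34 genes described here encode the enzymes and carriers of glycolysis, lactate handling and pyruvate handling, and they were picked by gene symbol from the 58381 genes measured in 786-O cells. 786-O is a human cell line derived from a clear cell renal cell carcinoma, and it is known for lacking functional VHL, the protein that marks hypoxia-inducible factors for destruction. The study asked what RARRES2, the gene of the secreted chemoattractant chemerin, does in such cells. It profiled RNA from 12 libraries in 4 groups of 3. The control group carried a hairpin against GFP (shGFP), and the other groups each carried 1 of 3 hairpins against RARRES2 (shRARRES2_1, shRARRES2_2 and shRARRES2_3). Every group had therefore been infected with a lentivirus, all were kept in DMEM with 10% FBS, and no uninfected cells were analysed here. The labels name neither the time after infection nor whether cells were cloned or pooled, and nothing in them says that the 3 libraries of a group came from separate cultures. P-values therefore measure only the spread between these libraries, which may be technical. Each level below is given in CPM, the reads of a gene per 1000000 reads, scaled between libraries by the authors, and the 3 values of a group are listed in the order of replicates 1, 2 and 3.

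Glycolysis splits glucose into pyruvate, which cells either reduce to lactate and export or carry into mitochondria, where the pyruvate dehydrogenase complex turns it into acetyl-CoA. Hexokinase, phosphofructokinase and pyruvate kinase catalyse its irreversible steps, and the PFKFB enzymes tune phosphofructokinase by making or removing fructose 2,6-bisphosphate. In clear cell renal carcinoma without VHL, hypoxia-inducible factors stay active and are known to keep many of these genes high, while FBP1, the gluconeogenic enzyme that opposes phosphofructokinase, is commonly lost.

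Library depth lay between 12599424 and 23594195 reads on genes, so that 3 reads, taken as the detection limit, amounted to 0.131 to 0.223 CPM. RARRES2 itself stood at 469 to 809 CPM with shGFP and at 37.5 to 92.6 CPM with the hairpins, and it fell with each of them (limma adjusted p = 9.49e-05, 0.00165 and 0.000160). The 7 markers checked for renal epithelium and 786-O cells were present in every library. They summed to 1121 to 2314 CPM with shGFP, 2795 to 6711 with shRARRES2_1, 2538 to 3277 with shRARRES2_2 and 768 to 7182 with shRARRES2_3. The list includes VIM, at 472 to 1129 CPM with shGFP and 262 to 2105 CPM over all libraries. Its sums therefore do not stand for renal epithelial genes alone. Summed leukocyte and endothelial markers stayed at or below 2.87 and 3.78 CPM, and 5 fibroblast markers summed to 4.08 to 83.3 CPM, highest in shRARRES2_2 replicate 1 and, at 77.4 CPM, in shGFP replicate 2. These high fibroblast sums rest on different genes. LUM was at 70.2 CPM in shRARRES2_2 replicate 1 and 1.66 in shGFP replicate 2. COL1A1 and COL1A2 were at 7.62 and 2.49 CPM in the former and 27.5 and 36.5 in the latter. Several libraries stood apart. shRARRES2_1 replicate 1 and shRARRES2_3 replicate 1 had the fewest detected genes, 21217 and 20932 against 24065 to 27603 elsewhere. shGFP replicate 2 and shRARRES2_3 replicate 2 had the lowest summed proliferation markers, 224 and 363 CPM against at least 956 elsewhere, and shGFP replicate 2 also held 470.3 CPM of summed keratinocyte markers against at most 36.3 elsewhere. Replicates 2 and 3 of shRARRES2_1 were far closer to each other than any other pair of replicates (chi-square per degree of freedom 2.95 against 64.8 to 378), though still further apart than sampling noise.

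The pathway was strongly expressed, and the highest levels per length belonged to enzymes of its lower part. Length here is that of all annotated exons of a gene merged, so ranks per length depend on the annotation. Among the shGFP libraries, ENO1, the enolase that makes phosphoenolpyruvate, reached 468 ± 128 CPM per kilobase of exons (SD, n = 3). GAPDH, which oxidises glyceraldehyde 3-phosphate, stood at 352 ± 34.6 and TPI1, which interconverts the triose phosphates, at 284 ± 37.7 CPM per kilobase. The difference between ENO1 and GAPDH was within the spread of ENO1, while TPI1 stood above the next genes by more than the spread. PKM at 133 ± 26.4, LDHA at 122 ± 40.9, PGK1 at 113 ± 2.57 and LDHB at 103 ± 31.3 CPM per kilobase came next and were not separated from one another beyond their spread.

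Where a step has several enzymes, 1 form led clearly for phosphofructokinase, enolase and PFKFB in these control cells, and for the other steps the forms were nearer to each other. Of the phosphofructokinases, the platelet form PFKP had 86.7 ± 3.00 CPM per kilobase, the liver form PFKL 20.5 ± 2.33 and the muscle form PFKM 7.99 ± 0.717, and the 3 forms did not overlap within their SDs. ENO2, the enolase also known as neuron-specific enolase, stood at 28.6 ± 20.7 CPM per kilobase, far under ENO1. PFKFB3 led its family with 21.3 ± 3.32 against 3.82 ± 1.10 for PFKFB4 and 1.58 ± 0.409 for PFKFB2. The 4 pyruvate dehydrogenase kinases lay between 1.15 ± 0.889 (PDK4) and 2.03 ± 0.248 (PDK3) CPM per kilobase, under every subunit of the complex they inhibit. HK1 at 29.1 ± 10.5 and HK2 at 17.7 ± 3.08, LDHA and LDHB, and the lactate exporters SLC16A3 at 35.2 ± 3.24 and SLC16A1 at 29.3 ± 3.64 CPM per kilobase were nearer to their partners.

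FBP1 was all but unread, and ALDOA was listed at a low level that is in doubt. FBP1 had 1 read in all 12 libraries together, so that it lay under the detection limit in each of them and did not pass the filter of at least 1 CPM in at least 3 libraries. ALDOA, the main aldolase of most cells, was listed at only 1.11 to 6.76 CPM. In the GENCODE 29 annotation, 42.3% of its exon bases are shared on the same strand with another gene model, AC093512.2, which stood at a mean of 3.08 CPM. How reads that fit both models were counted is not given, the part of this overlap in the low listed level was not tested, and the ALDOA level is therefore uncertain. For LDHB, 33.4% of exon bases are shared in the same way with AC010197.2, which has no value among the genes used here. Strand use in counting is not given either, and on the opposite strand SAMD14 (mean 1.15 CPM) shares 38.6% of the PDK2 exon bases and DCAF6 (mean 62.2 CPM) 22.5% of those of MPC2, so these levels are uncertain too. Pseudogenes named for a member summed to at most 0.507% of its level. The handling of reads that fit both a member and a pseudogene is not given. This low sum therefore does not show that no such reads were lost.

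**Figure D1:**
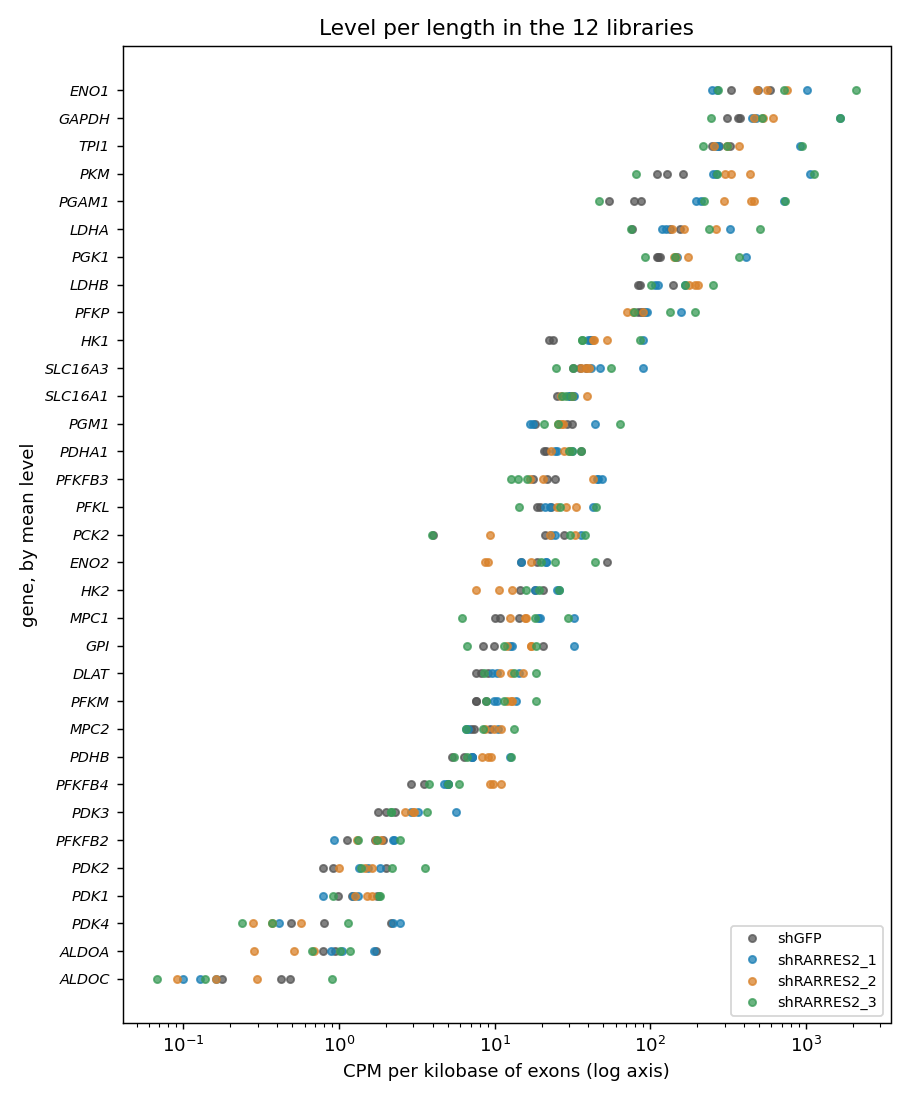
Level of the 33 tested genes in each of the 12 libraries, in CPM per kilobase of exons on a log axis, ordered by mean level and coloured by group. ENO1, GAPDH and TPI1 lead, the pyruvate dehydrogenase kinases, PFKFB2 and both aldolases lie at the bottom, and single hairpin libraries extend far to the right for PKM, PGAM1, GAPDH and ENO1.

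No member of the pathway passed the test with any hairpin. Each hairpin group was compared with the same 3 shGFP libraries by limma on log2(CPM + 1) across 15236 genes, so the comparisons are not independent of one another, and a gene was called at a Benjamini-Hochberg adjusted p under 0.05. Of the 33 members that passed the filter, limma called 0 with shRARRES2_1, where it called 0.171% of all genes, 0 with shRARRES2_2 (0.0459% of all genes), 0 with shRARRES2_3 (0.00656%), 0 for the mean of the 3 hairpins (0.00656%) and 0 in the F-test between the hairpins (0.249%). edgeR on the recovered reads called 0 members as well, with 0.0197% of all genes called for shRARRES2_1, 0.0263% for shRARRES2_2, 0.00656% for shRARRES2_3 and for the mean, and 0.131% between hairpins. DESeq2 on the same reads called PGAM1 with shRARRES2_1, PGAM1 and PFKFB4 with shRARRES2_2, PGAM1 for the mean, and HK2, PFKFB3 and PFKFB4 in its test between hairpins, while it called 3.26%, 2.28%, 0.866% and 4% of all genes in those comparisons. With shRARRES2_3 DESeq2 called 0 members (0.105% of all genes). At an unadjusted limma p under 0.05 the members numbered 4 with shRARRES2_1 (16.7% of all genes), 7 with shRARRES2_2 (13.7%), 2 with shRARRES2_3 (3.32%), 6 for the mean (12.6%) and 5 between hairpins (11%). As shares of the 33 members these are 12.1%, 21.2%, 6.06%, 18.2% and 15.2%, below that of all genes with shRARRES2_1 and above it in the others.

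Most fitted changes of the members were above 0. The fitted log2 change was above 0 for 27 of 33 members with each hairpin, against 52.2%, 55.2% and 50.3% of all genes with shRARRES2_1, shRARRES2_2 and shRARRES2_3, and for 28 of 33 for the mean of the hairpins (53.2%). The median log2 change of the members was 0.42, 0.32 and 0.34 with the 3 hairpins in turn, beside 0.04, 0.07 and 0.00 over all genes. In bulk RNA, a higher level in each cell and a larger share of cells with a high level cannot be told apart. Single libraries moved those medians. The value for shRARRES2_3 was 0.03 without its replicate 1 and 0.66 without its replicate 2, that for shRARRES2_1 was 0.28 without its replicate 1, and that for the mean of the hairpins went from 0.39 to 0.24 without shRARRES2_3 replicate 1. With 2 surrogate variables in the model the medians were 0.06, -0.06 and -0.03.

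Members whose groups did not overlap shGFP were mostly on the higher side. With shRARRES2_1, 12 of 33 members (36.4%) lay above every shGFP library, against 17% of all genes. They were PFKM, PFKP, GAPDH, PGK1, PGAM1, PKM, PDK3, PFKFB3, SLC16A3, PDHB, DLAT and MPC1, while ALDOC lay below (15% of all genes). With shRARRES2_2, 12 members (36.4%) lay above, against 16.4% of all genes, namely HK1, PFKL, PFKM, GAPDH, PGK1, PGAM1, PKM, LDHB, PDK3, PFKFB4, PDHB and DLAT, and HK2 and ALDOA lay below (11.7%). With shRARRES2_3, 0 members lay above (3.03%) and PFKFB3 lay below (3.63%). Over all 9 hairpin libraries, 0 members lay above or below every shGFP library (0.788% and 0.729% of all genes). These comparisons share their shGFP libraries, so their counts are not independent.

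**Figure D2:**
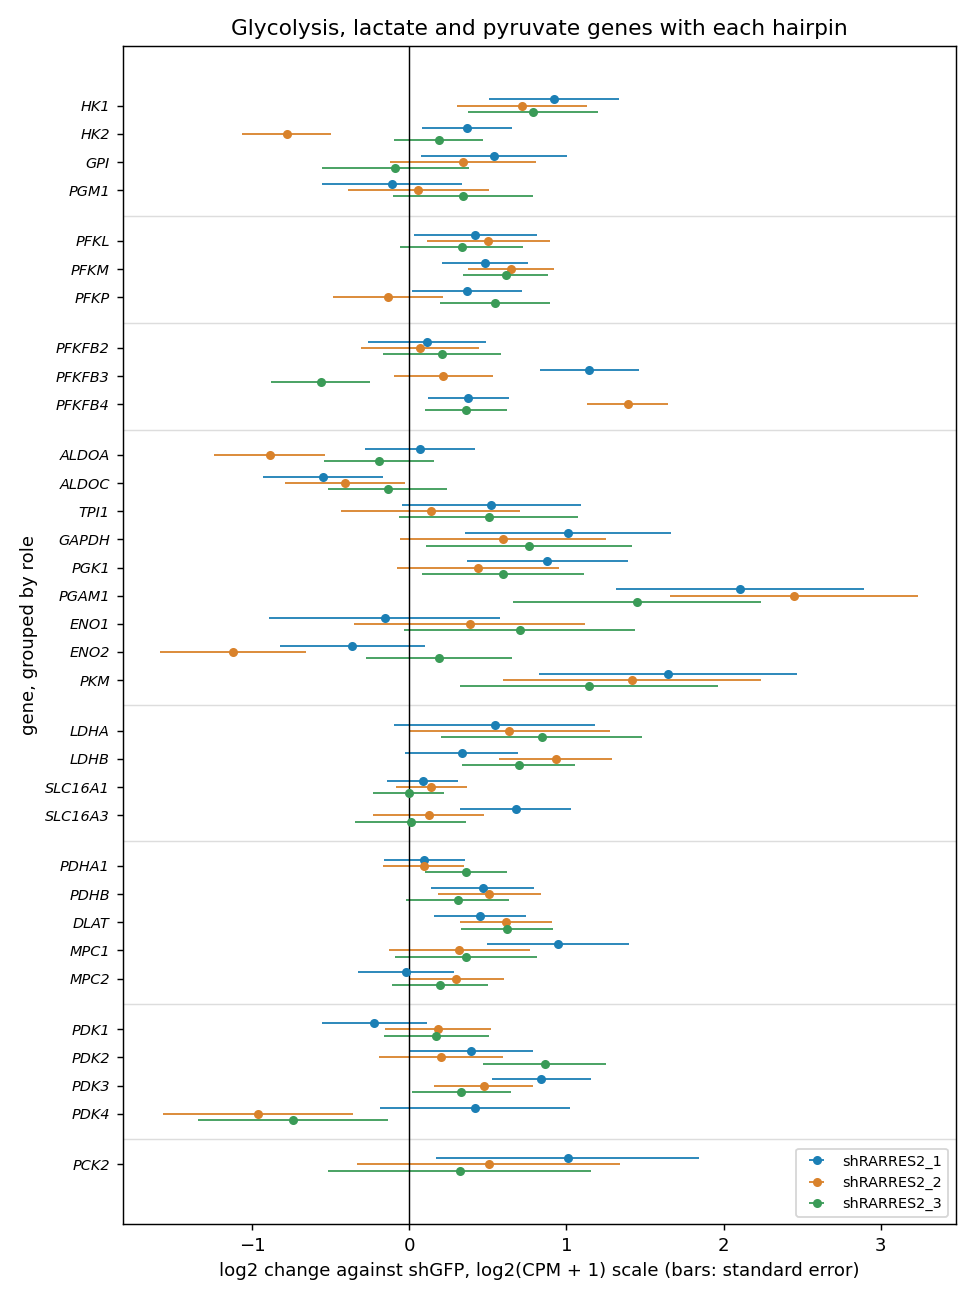
Fitted log2 change against shGFP for each of the 33 tested genes with each hairpin, on the log2(CPM + 1) scale, with bars of 1 standard error and genes grouped by role. Most points lie right of 0, PGAM1 and PKM lie farthest right with wide bars, and PFKFB3, PFKFB4 and HK2 show hairpins that lie apart from one another.

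Pathway totals varied widely between libraries of the same group. The 34 genes summed to 9845, 8499 and 10479 CPM in the shGFP libraries, to 32859, 11063 and 10586 with shRARRES2_1, to 13018, 17621 and 14006 with shRARRES2_2, and to 40096, 6944 and 14525 with shRARRES2_3. shRARRES2_1 replicate 1 and shRARRES2_3 replicate 1, the libraries with the fewest detected genes, were thus the highest, and shRARRES2_3 replicate 2 was the lowest. The authors' scaling, which divides CPM by a factor for each library, widened this spread. The factors were 0.798 and 0.788 in those replicate 1 libraries and 1.15 in shRARRES2_3 replicate 2. As unscaled shares of reads, the genes made up 2.62% and 3.16% in the former and 0.80% in the latter. The shares elsewhere were 0.916% to 1.68%, so the same libraries stayed at the ends. The summed renal epithelial and 786-O markers had the same libraries at their ends. They stood at 6711 and 7182 CPM in those replicate 1 libraries and at 768 CPM in shRARRES2_3 replicate 2. KRT8 was the largest part of the replicate 1 sums, at 3531 and 4050.5 CPM, against 131 CPM in shRARRES2_3 replicate 2. PAX8, from the same list, went the other way, at 243 and 239 CPM against 276 CPM, so the sum does not stand for every marker. One or the other of those replicate 1 libraries held the highest value of 24 of the 33 members, against 26.6% of all genes, and both stood above all 10 other libraries for 17 members (16.3% of all genes). At the other end, shGFP replicate 2 or shRARRES2_3 replicate 2, the libraries low in proliferation markers, held the lowest value of 16 members, against 29.5% of all genes. Beyond leaving these libraries out, the part of detected genes and of renal epithelial and 786-O, fibroblast, proliferation and keratinocyte markers in the member values was not tested. Without the replicate 1 libraries named above, 24, 27 and 20 members had a log2 change above 0 with the 3 hairpins (53.5%, 54.7% and 53.2% of all genes). In that setting 15, 12 and 0 lay above every shGFP library (25.0%, 16.4% and 5.86% of all genes), and 4, 2 and 2 lay below (20.1%, 11.7% and 5.94%). Without the libraries low in proliferation markers the counts above 0 were 29, 24 and 30 (49.9%, 53.5% and 49.7% of all genes). Then 17, 15 and 21 lay above every remaining shGFP library (24.1%, 23.7% and 27.6% of all genes), and 1, 4 and 2 lay below (22.1%, 16.7% and 22.9%).

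**Figure D3:**
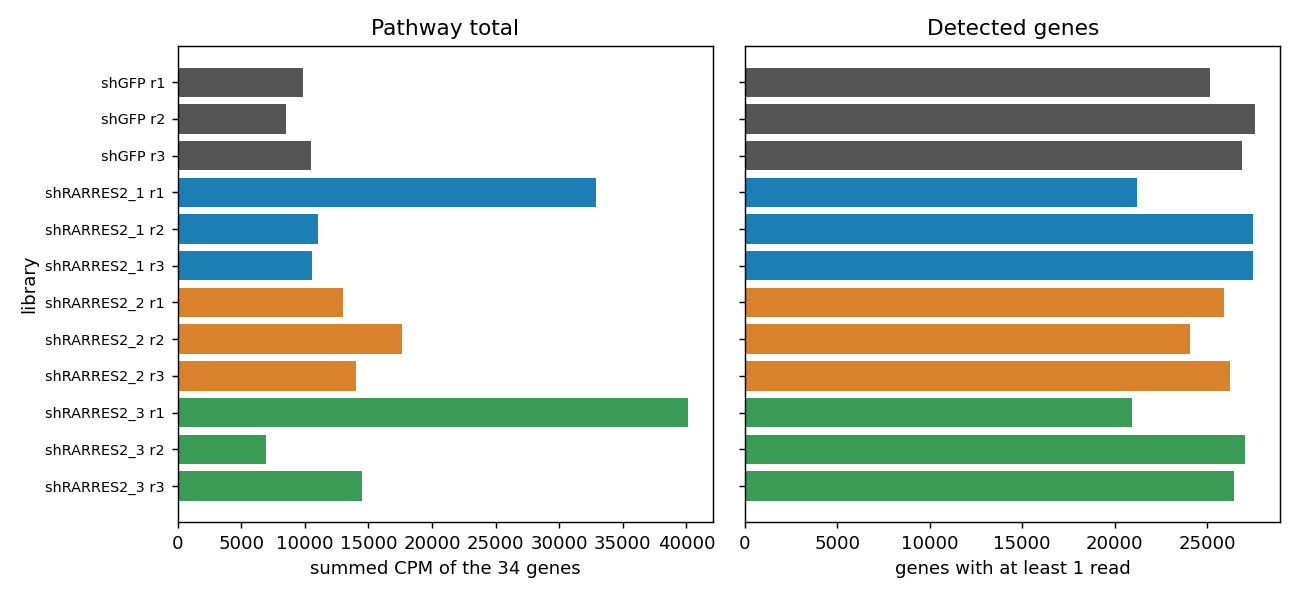
Summed CPM of the 34 genes and number of genes with at least 1 read, as bars for each of the 12 libraries, coloured by group. shRARRES2_1 replicate 1 and shRARRES2_3 replicate 1 have the highest pathway totals, 32859 and 40096 CPM, and the fewest detected genes.

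The hexokinases among the members, which trap glucose as glucose 6-phosphate, lay on opposite sides of shGFP with shRARRES2_2, HK1 above and HK2 below, though neither passed the test. HK1 (chromosome 10, 69269984 to 69401884, plus strand of GRCh38) was at 149.958, 259 and 140.4 CPM in the shGFP libraries, 565, 263 and 252 with shRARRES2_1, 268, 331 and 275 with shRARRES2_2, and 538, 228 and 229.6 with shRARRES2_3. Every hairpin library stood above shGFP replicates 1 and 3, while shGFP replicate 2 lay among the hairpin values. All 3 shRARRES2_2 libraries were above every shGFP library. Its log2 changes were 0.92 ± 0.41, 0.72 ± 0.41 and 0.79 ± 0.41 (standard error) with limma adjusted p = 0.289, 0.447 and 0.876. HK2 (chromosome 2, 74833981 to 74893359, plus strand), the form often induced in tumours, was at 87.7, 110.4 and 125 CPM in the shGFP libraries, 109.5, 151 and 157 with shRARRES2_1, 46.0, 64.6 and 78.4 with shRARRES2_2, and 96.7, 117 and 158 with shRARRES2_3. The 3 shRARRES2_2 libraries were the lowest of all 12, and the other hairpin groups overlapped shGFP. The log2 change with shRARRES2_2 was -0.78 ± 0.28, which did not pass (limma adjusted p = 0.291), and the F-test between hairpins gave 0.171. GPI, which isomerises glucose 6-phosphate, had log2 changes of 0.54, 0.34 and -0.09, and PGM1, which links glycolysis to glycogen, of -0.11, 0.06 and 0.34. For both, the 3 groups overlapped shGFP.

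Phosphofructokinase commits sugar to glycolysis, and none of its 3 genes passed the test. PFKP (chromosome 10, 3066333 to 3137712, plus strand), the most abundant form, was at 433, 405 and 420.4 CPM in the shGFP libraries, 764, 461 and 447 with shRARRES2_1, 344, 432 and 374 with shRARRES2_2, and 941, 379 and 646 with shRARRES2_3. Values above the shGFP range were found in every shRARRES2_1 library and in replicates 1 and 3 of shRARRES2_3, and the shRARRES2_2 libraries lay around or under shGFP. The log2 changes of 0.36, -0.13 and 0.55 did not pass (limma adjusted p = 0.563, 0.867 and 0.876). PFKM was at 55.4 to 64.5 CPM with shGFP, 72.1 to 99.7 with shRARRES2_1, 88.4 to 94.2 with shRARRES2_2 and 64.3 to 134 with shRARRES2_3. It was above shGFP in 8 of 9 hairpin libraries, with log2 changes of 0.48, 0.65 and 0.61, which did not pass either (limma adjusted p = 0.362, 0.334 and 0.876). For PFKL the log2 changes were 0.42, 0.50 and 0.33, and only the shRARRES2_2 libraries were all above shGFP.

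Of the 33 members, PFKFB3 and PFKFB4 had the lowest adjusted p-values in the F-test between hairpins, both above the threshold. PFKFB3 (chromosome 10, 6144934 to 6254644, plus strand), the form with the strongest kinase activity and so a driver of phosphofructokinase, was at 133, 149 and 109 CPM in the shGFP libraries, 299.995, 282 and 279.5 with shRARRES2_1, 103, 261 and 126 with shRARRES2_2, and 99.0, 77.6 and 86.0 with shRARRES2_3. All shRARRES2_1 libraries lay above all shGFP libraries, all shRARRES2_3 libraries lay below them, and shRARRES2_2 replicate 2 stood far above the other libraries of its group. The log2 change was 1.15 ± 0.32 with shRARRES2_1 and -0.56 ± 0.32 with shRARRES2_3 (limma adjusted p = 0.169 and 0.876). Tested across the 3 hairpins at once, its limma adjusted p was 0.0872, above the threshold. Leaving out shRARRES2_2 replicate 2 brought that F-test to 0.0333, and over all alternatives its adjusted p ran from 0.00412 to 0.332.

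PFKFB4 (chromosome 3, 48517684 to 48562015, minus strand), a second producer of fructose 2,6-bisphosphate and a known hypoxia-induced gene, was at 17.7, 30.8 and 21.4 CPM in the shGFP libraries, 30.4, 30.1 and 28.8 with shRARRES2_1, 57.1, 66.7 and 59.9 with shRARRES2_2, and 36.0, 23.2 and 30.5 with shRARRES2_3. The shRARRES2_2 libraries were the 3 highest of the 12 and stood clear of the rest, and the other hairpin groups overlapped the shGFP range. The group mean with shRARRES2_2 was 2.63 times that with shGFP, and the log2 change was 1.39 ± 0.26 (limma adjusted p = 0.111). The same change passed with DESeq2 (adjusted p = 0.000862), with 2 surrogate variables in the model (0.0212), with limma without shRARRES2_3 replicate 2 (0.0397) and with limma without both libraries low in proliferation markers (0.0271). Over all alternatives the adjusted p ran from 0.000862 to 0.366. UCN2 shares 4.73% of the PFKFB4 exon bases on the same strand. PFKFB2 was at 9.40 to 25.2 CPM over all libraries, and its groups overlapped, with log2 changes of 0.11, 0.07 and 0.21.

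EPAS1, which encodes the hypoxia-inducible factor subunit HIF-2alpha that 786-O cells rely on, fell with shRARRES2_2. It was at 449.65, 464 and 1009 CPM with shGFP and at 90.6, 72.6 and 95.0 with shRARRES2_2, with a log2 change of -2.78 ± 0.32 (limma adjusted p = 0.0107). It was also below every shGFP library with shRARRES2_1 (232 to 268 CPM) and with shRARRES2_3 (299.7 to 442 CPM), where the log2 changes of -1.22 and -0.79 did not pass (limma adjusted p = 0.154 and 0.876). HIF1A, which encodes HIF-1alpha, had log2 changes of -1.40, -1.49 and -0.73 with the 3 hairpins, none of which passed (limma adjusted p = 0.211, 0.230 and 0.876). The part of these levels in those of the pathway genes was not tested.

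Promoter windows of 300 bases, from 250 before to 50 after each RefSeq start site (GRCh38.p14), were read for these genes because hypoxia-inducible factors bind ACGTG and GCGTG cores. RefSeq entries matched 32 of the 34 members by symbol, with 64 windows in all, since many genes have several starts; SLC16A1 and PFKFB2 had none. ACGTG occurred on either strand in 23 of the 64 windows (35.9%), against 21.4% of 35116 windows of all genes. GCGTG occurred in 28 (43.8%), against 36.5%, and at least 1 of either in 40 (62.5%), against 48.4%. Several windows of 1 gene overlap and are not independent, and CACGTG counts as 2 ACGTG matches because both strands are read. A match is a run of letters and not a bound site. Shown are the windows of PFKFB4, PFKFB3 and HK2, which had the lowest adjusted p-values between hairpins, with LDHA, of which 1 window holds the most ACGTG matches, and PGAM1, the member with the largest fitted change, whose window holds neither motif. They run 5′ to 3′ on the strand of the gene, with both motifs in capitals. The PGAM1 window lies inside the annotated gene, downstream of its 5′ end at 97426160, and does not cover that end. Its lack of motifs therefore says nothing about the sequence upstream of that end. The windows of PFKFB4 and HK2 also lie inside their annotated genes, whose 5′ ends are at 48562015 and 74833981. PFKFB4 is at chr3:48556754-48557053 on the minus strand, the upstream and downstream starts of PFKFB3 are at chr10:6144671-6144970 on the plus strand and chr10:6202682-6202981 on the plus strand, HK2 is at chr2:74834920-74835219 on the plus strand, LDHA at chr11:18394313-18394612 on the plus strand and PGAM1 at chr10:97427568-97427867 on the plus strand.
PFKFB4: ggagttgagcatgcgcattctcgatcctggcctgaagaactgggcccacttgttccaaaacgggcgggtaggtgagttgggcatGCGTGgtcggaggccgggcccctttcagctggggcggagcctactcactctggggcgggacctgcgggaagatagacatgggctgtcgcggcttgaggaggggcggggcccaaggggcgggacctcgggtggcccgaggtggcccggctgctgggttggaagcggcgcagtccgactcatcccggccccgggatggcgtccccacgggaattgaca
PFKFB3 upstream start: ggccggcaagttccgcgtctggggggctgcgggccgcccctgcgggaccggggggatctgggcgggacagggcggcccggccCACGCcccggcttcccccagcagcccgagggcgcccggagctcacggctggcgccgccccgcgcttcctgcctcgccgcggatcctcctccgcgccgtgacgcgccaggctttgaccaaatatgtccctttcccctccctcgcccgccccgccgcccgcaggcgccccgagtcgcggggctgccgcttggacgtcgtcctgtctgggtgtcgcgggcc
PFKFB3 downstream start: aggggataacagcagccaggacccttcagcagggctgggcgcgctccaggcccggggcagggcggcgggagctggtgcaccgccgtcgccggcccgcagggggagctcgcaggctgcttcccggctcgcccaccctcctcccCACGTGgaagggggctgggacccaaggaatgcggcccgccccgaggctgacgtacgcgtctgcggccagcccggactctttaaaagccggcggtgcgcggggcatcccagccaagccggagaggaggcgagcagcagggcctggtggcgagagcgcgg
HK2: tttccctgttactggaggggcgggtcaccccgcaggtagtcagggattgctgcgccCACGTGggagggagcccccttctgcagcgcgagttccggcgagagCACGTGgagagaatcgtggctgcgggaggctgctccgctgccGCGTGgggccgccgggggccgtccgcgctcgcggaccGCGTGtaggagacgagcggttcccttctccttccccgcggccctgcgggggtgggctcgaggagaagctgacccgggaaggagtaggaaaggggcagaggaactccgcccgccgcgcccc
LDHA: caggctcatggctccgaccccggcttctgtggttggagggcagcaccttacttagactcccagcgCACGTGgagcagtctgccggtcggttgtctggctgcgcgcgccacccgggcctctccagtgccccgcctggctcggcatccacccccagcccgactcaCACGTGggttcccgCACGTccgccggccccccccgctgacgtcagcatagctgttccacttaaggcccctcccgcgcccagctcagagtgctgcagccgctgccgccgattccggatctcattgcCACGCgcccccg
PGAM1: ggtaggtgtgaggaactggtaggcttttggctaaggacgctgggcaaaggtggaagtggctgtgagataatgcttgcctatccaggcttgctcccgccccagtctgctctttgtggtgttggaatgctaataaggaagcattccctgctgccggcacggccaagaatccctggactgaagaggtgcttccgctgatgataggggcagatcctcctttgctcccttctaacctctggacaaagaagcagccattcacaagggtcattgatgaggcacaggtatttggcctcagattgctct
Of 2 windows each for HK2 and LDHA, the one with more matches is shown. The HK2 window shown held 4 ACGTG and 2 GCGTG matches and the other 2 and 1, the LDHA window shown held 5 and 1 and the other 0 and 1, and PFKFB4 had a single GCGTG.

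**Figure D4:**
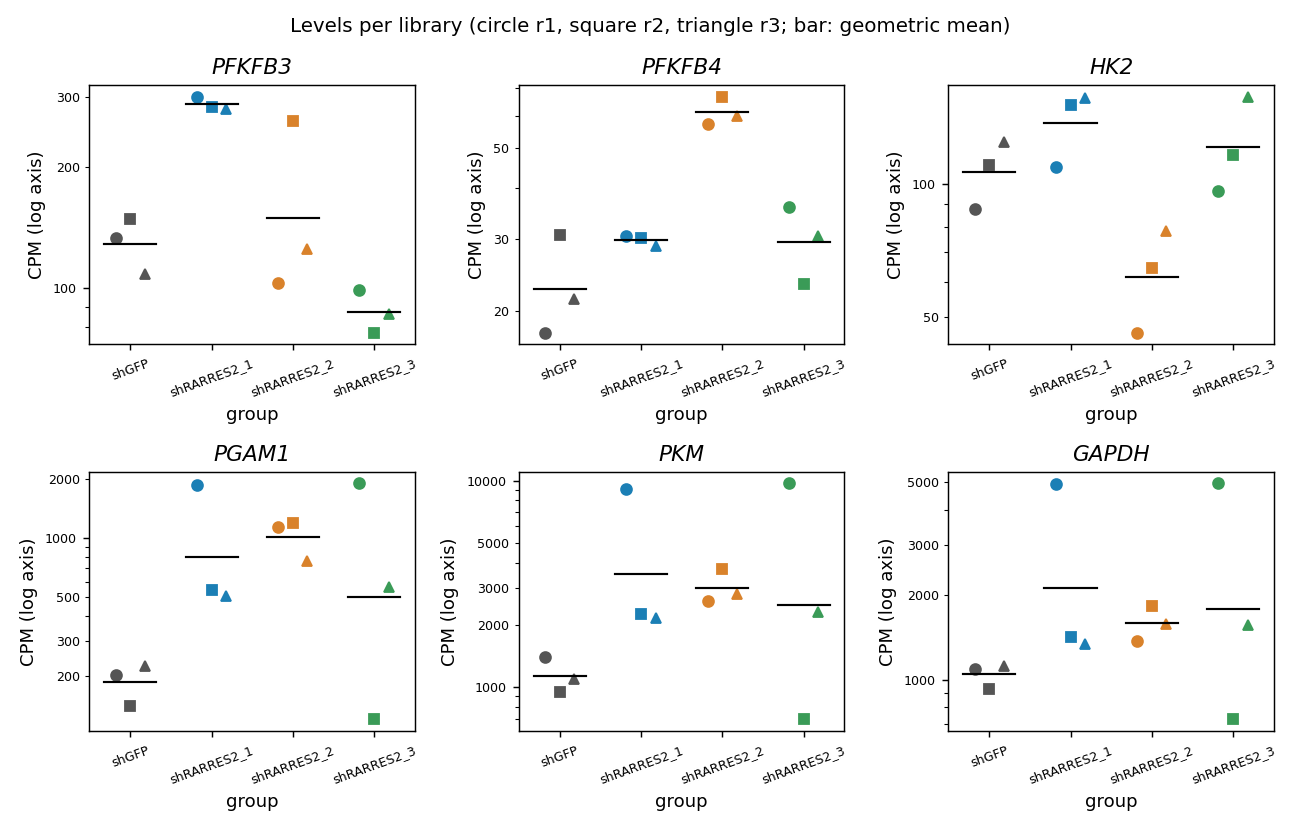
CPM in each library on log axes for PFKFB3, PFKFB4, HK2, PGAM1, PKM and GAPDH, with circles, squares and triangles for replicates 1, 2 and 3 and bars for the geometric mean of each group. PFKFB3 separates shRARRES2_1 from shRARRES2_3, PFKFB4 and HK2 set shRARRES2_2 apart, and the lower 3 genes spread widely within shRARRES2_1 and shRARRES2_3.

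From aldolase to pyruvate kinase, PGAM1 and PKM had the largest fitted changes of the pathway and also some of its widest spreads. PGAM1 (chromosome 10, 97426160 to 97433441, plus strand), the phosphoglycerate mutase that turns 3-phosphoglycerate into 2-phosphoglycerate, was at 202, 139 and 223 CPM in the shGFP libraries, 1853, 543 and 505 with shRARRES2_1, 1139, 1189.8 and 763 with shRARRES2_2, and 1890.2, 120.0 and 565 with shRARRES2_3. 8 of the 9 hairpin libraries stood above every shGFP library, at 505 CPM or more, and shRARRES2_3 replicate 2 stood below all of them. Group means were 5.14, 5.47 and 4.56 times that of shGFP, and the log2 changes were 2.11 ± 0.79, 2.45 ± 0.79 and 1.45 ± 0.79, none of which passed (limma adjusted p = 0.252, 0.269 and 0.876). For the mean of the 3 hairpins limma gave an adjusted p of 0.383, and without shRARRES2_3 replicate 2 the log2 change was 2.34 with an adjusted p of 0.0366 (0.0256 to 0.560 over all alternatives). Within shRARRES2_3, replicate 1 had 15.8 times the PGAM1 level of replicate 2.

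PKM (chromosome 15, 72199029 to 72231822, minus strand), the pyruvate kinase that makes pyruvate and ATP, was at 1388, 943 and 1092 CPM in the shGFP libraries, 9052, 2249 and 2162 with shRARRES2_1, 2591, 3741 and 2815 with shRARRES2_2, and 9674, 696 and 2296 with shRARRES2_3. Every library of shRARRES2_1 and shRARRES2_2 lay above every shGFP library, while shRARRES2_3 replicate 2 lay below them all. The log2 changes of 1.65 ± 0.82, 1.42 ± 0.82 and 1.14 ± 0.82 did not pass (limma adjusted p = 0.324, 0.448 and 0.876). Counts per gene do not separate the PKM1 and PKM2 splice forms.

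GAPDH (chromosome 12, 6533927 to 6538374, plus strand) was at 1097, 932 and 1122 CPM in the shGFP libraries, 4907, 1425 and 1345 with shRARRES2_1, 1378, 1829.7 and 1581 with shRARRES2_2, and 4944, 727 and 1563 with shRARRES2_3. Again both replicate 1 libraries of shRARRES2_1 and shRARRES2_3 were several times higher than the other libraries of their group, shRARRES2_3 replicate 2 was the lowest library, and the shRARRES2_1 and shRARRES2_2 values were all above shGFP. Log2 changes were 1.01, 0.60 and 0.76 (limma adjusted p = 0.408, 0.675 and 0.876). GAPDH is often used as a reference gene, and here its highest library had 6.80 times the level of its lowest. PGK1, which makes the first ATP of the payoff phase, and TPI1 also had shRARRES2_3 replicate 2 lowest and one of those replicate 1 libraries highest, with log2 changes of 0.88, 0.44 and 0.59 and of 0.52, 0.14 and 0.51.

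ENO1 (chromosome 1, 8861000 to 8879250, minus strand) was at 2586, 1740.0 and 3078 CPM in the shGFP libraries, 5397, 1412 and 1307 with shRARRES2_1, 2572, 4009 and 2984 with shRARRES2_2, and 10997, 1433 and 3800.2 with shRARRES2_3. The highest library was shRARRES2_3 replicate 1, but replicates 2 and 3 of shRARRES2_1 were the 2 lowest, and its log2 changes were -0.16, 0.38 and 0.70 (limma adjusted p = 0.916, 0.819 and 0.876). ENO2 was at 63.1, 224 and 79.6 CPM with shGFP and at 37.1, 38.7 and 73.7 with shRARRES2_2. Its highest library was shGFP replicate 2, and the log2 change with shRARRES2_2 was -1.12 ± 0.46 (limma adjusted p = 0.327). ALDOA, with the counting limit given above, had log2 changes of 0.07, -0.89 and -0.19. ALDOC, the brain-type aldolase, lay at or under 2.66 CPM, where the added 1 CPM shrinks the fold, with log2 changes of -0.55, -0.41 and -0.14.

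**Figure D5:**
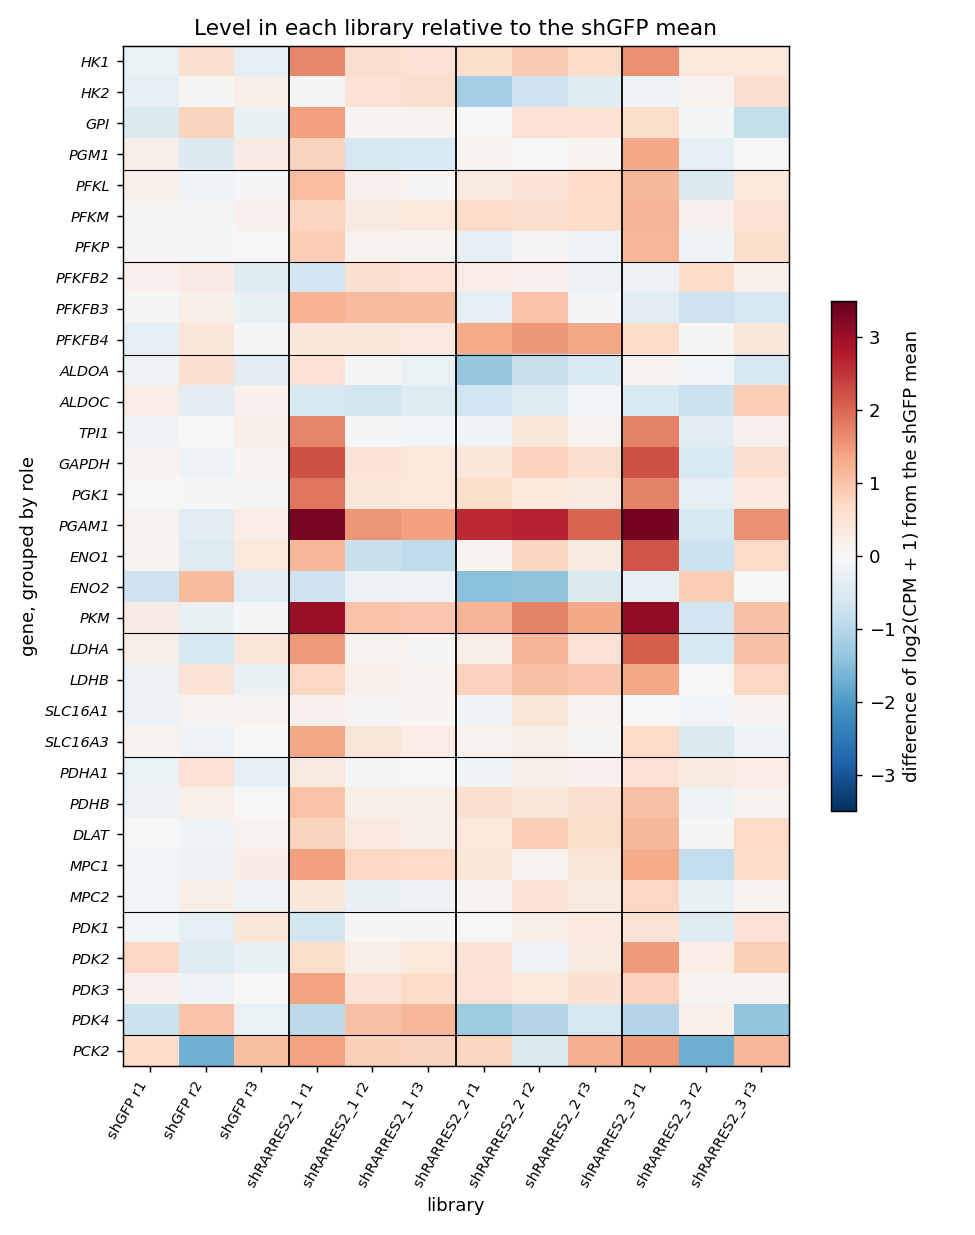
Difference of log2(CPM + 1) from the shGFP mean for each of the 33 tested genes (rows, grouped by role) in each of the 12 libraries (columns). The columns of shRARRES2_1 replicate 1 and shRARRES2_3 replicate 1 are red for most genes, and that of shRARRES2_3 replicate 2 is blue for most glycolytic genes from GAPDH to PKM and for MPC1 and PCK2.

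Neither lactate dehydrogenase gene passed the test with any hairpin. LDHA (chromosome 11, 18394388 to 18408425, plus strand), the dehydrogenase subunit that favours lactate formation, was at 833, 471 and 961 CPM in the shGFP libraries, 2017, 781 and 741 with shRARRES2_1, 851, 1639 and 1017 with shRARRES2_2, and 3149, 467 and 1483 with shRARRES2_3. Every hairpin group overlapped shGFP, and the lowest libraries were shRARRES2_3 replicate 2 and shGFP replicate 2. Its log2 changes were 0.54, 0.64 and 0.84 (limma adjusted p = 0.642, 0.647 and 0.876). LDHB, the subunit that favours lactate use, was at 257, 415 and 249 CPM with shGFP and 526, 607 and 579 with shRARRES2_2, where all 3 libraries were above shGFP, and its log2 changes were 0.33, 0.93 and 0.70 (limma adjusted p = 0.609, 0.301 and 0.876).

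The monocarboxylate carriers SLC16A1 (MCT1) and SLC16A3 (MCT4) export lactate. SLC16A1 had the narrowest range of the 33 members, with its highest library at 1.57 times its lowest and log2 changes of 0.08, 0.14 and 0.00. SLC16A3, the carrier typical of strongly glycolytic cells, was at 346, 287 and 316 CPM with shGFP and at 808, 424 and 375 with shRARRES2_1. That group was above shGFP in all 3 libraries, and the log2 change was 0.68 ± 0.35 (limma adjusted p = 0.337), while those with shRARRES2_2 and shRARRES2_3 were 0.12 and 0.01.

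PDHA1, PDHB, DLAT, MPC1 and MPC2, which bring pyruvate into mitochondria and oxidise it, had fitted changes above 0 with every hairpin, apart from MPC2 with shRARRES2_1, and none passed the test. PDHX, a further subunit of the pyruvate dehydrogenase complex that is no member, had log2 changes of -0.07, -0.18 and 0.15. DLD, another such subunit, had log2 changes of 0.90, 0.91 and 0.38, which did not pass (limma adjusted p = 0.223, 0.270 and 0.876). PDHA1 (chromosome X, 19343893 to 19361705, plus strand), the regulated subunit of the pyruvate dehydrogenase complex, was at 96.7, 160.1 and 92.8 CPM in the shGFP libraries, 141, 110.0 and 113 with shRARRES2_1, 103, 134 and 126 with shRARRES2_2, and 162, 141 and 135 with shRARRES2_3. All hairpin groups overlapped the shGFP range, and the log2 changes were 0.10, 0.09 and 0.36 (limma adjusted p = 0.85, 0.881 and 0.876). DLAT, the acetyltransferase core of the complex, had log2 changes of 0.45, 0.61 and 0.62 and PDHB, the partner of PDHA1, of 0.47, 0.51 and 0.31. For both genes the shRARRES2_1 and shRARRES2_2 libraries lay above all shGFP libraries. The mitochondrial pyruvate carrier is a pair of MPC1 and MPC2. MPC1 was at 16.6, 15.5 and 22.3 CPM with shGFP and 49.973, 30.4 and 29.4 with shRARRES2_1, a log2 change of 0.95 ± 0.45 (limma adjusted p = 0.31), whereas MPC2 had -0.02 in that comparison.

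The pyruvate dehydrogenase kinases, which switch the complex off, had fitted changes in both directions, and none passed the test. PDK3 (chromosome X, 24465221 to 24541862, plus strand), the most abundant of them per length, was at 11.3, 8.83 and 9.98 CPM in the shGFP libraries, 28.1, 14.3 and 16.0 with shRARRES2_1, 14.7, 13.1 and 15.0 with shRARRES2_2, and 18.3, 10.7 and 10.7 with shRARRES2_3. The shRARRES2_1 and shRARRES2_2 libraries were all above shGFP, and shRARRES2_3 overlapped it. Its log2 changes were 0.84, 0.47 and 0.33 (limma adjusted p = 0.252, 0.499 and 0.876). PDK1, the hypoxia-induced form, had log2 changes of -0.22, 0.18 and 0.17, and PDK2 of 0.39, 0.20 and 0.86. Without division by length, PDK1 stood above PDK3, at a mean of 20.2 against 14.3 CPM over all libraries. The merged exons of PDK1 span 14.883 kilobases and those of PDK3 4.951, so their order per length rests on these lengths. PDK4, the form induced by fasting and fatty acids, was at 1.07 to 11.1 CPM with log2 changes of 0.42, -0.96 and -0.74, and its replicates within shRARRES2_1 ran from 1.86 to 11.1 CPM.

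PCK2 (chromosome 14, 24094053 to 24110598, plus strand), the mitochondrial enzyme that makes phosphoenolpyruvate from oxaloacetate, was at 88.1, 16.7 and 116 CPM in the shGFP libraries, 149.7, 102 and 96.7 with shRARRES2_1, 94.4, 39.1 and 138 with shRARRES2_2, and 158, 16.6 and 127 with shRARRES2_3. The lowest libraries were shRARRES2_3 replicate 2 and shGFP replicate 2, several times under the others of their groups. Log2 changes were 1.01, 0.51 and 0.32 (limma adjusted p = 0.504, 0.791 and 0.937), and without shGFP replicate 2 the values for shRARRES2_2 and shRARRES2_3 were -0.34 and -0.52 and that for the mean of the hairpins went from 0.61 to -0.23. Without shRARRES2_3 replicate 1 or replicate 3 the value for shRARRES2_3 was -0.26 or -0.11.

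Other genes of the same pathway, from a list of 40 that includes further isoforms, the pyruvate dehydrogenase phosphatases, glycerol phosphate shuttle enzymes and alanine transaminases, held no gene called by limma. Of 39 with a value, 25 were tested and 14 were too low, at or under 0.798 CPM in every library. limma and edgeR called 0 of the 25 in any comparison, DESeq2 called PGM2L1 and GPT with shRARRES2_1, PGM2 with shRARRES2_2 and for the mean, LDHD between hairpins and 0 with shRARRES2_3 (3.26%, 2.28%, 0.866%, 4% and 0.105% of all genes in the order shRARRES2_1, shRARRES2_2, mean, between hairpins, shRARRES2_3), and 17, 15 and 17 had log2 changes above 0 with the 3 hairpins. At an unadjusted limma p under 0.05 there were 4 higher and 1 lower with shRARRES2_1, 3 higher with shRARRES2_2 and 2 higher with shRARRES2_3, against 16.7%, 13.7% and 3.32% of all genes in either direction. PGM2, a phosphopentomutase related to PGM1 that is named here after its values were seen, had log2 changes of 0.75, 0.83 and 0.56 (limma adjusted p = 0.204, 0.215 and 0.876).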

How the data were processed

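The authors deposited 1 table of CPM for 58381 genes in 12 libraries. The submitters' processing notes name CASAVA, Trim Galore 0.6.1, STAR 2.5.2, edgeR and the hg38 build, and the counter, annotation and strandedness are not given in the sources used here. The deposited signal values are CPM divided by library scaling factors of 0.788 to 1.15, and 100% of them were whole reads at a tolerance of 1e-06 once divided by the value of 1 read. Members were matched by symbol, and lengths and overlaps come from GENCODE 29 (58261 IDs matched).

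limma 3.58.1 (R 4.3.3, eBayes with trend) was run on log2(CPM + 1) of 15236 genes that reached 1 CPM in 3 or more libraries, as group means over all 12 libraries. Alternatives were edgeR 4.0.16, DESeq2 1.42.0 and sva 3.50.0 with 2 surrogate variables. Scripts were tested on simulated data for shRARRES2_1 against shGFP. There limma and edgeR each recovered 5% of log2 changes of 1 in size, and 93% and 95% of those of 3. A gene that was not called is therefore not shown to be unchanged. A 1 CPM pseudocount understates changes of low genes. Counting limits cover counting error only.

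Library values are given for members whose groups did not overlap with a log2 change of at least 1, the most abundant member per length of each role, and a few chosen after their values were seen (HK2, PFKM, LDHB, ENO2, SLC16A3, MPC1). The members and gene lists were chosen with earlier results of these data known.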

Additional observations from a re-analysis of the deposited data

Results flagged for a closer look

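PFKFB3 lay above every shGFP library with shRARRES2_1 (279.5 to 299.995 CPM against 109 to 149) and below every one with shRARRES2_3 (77.6 to 99.0 CPM). This opposite direction drew attention because every library of a group moved the same way. Replicates 2 and 3 of shRARRES2_1 were the closest pair of all, however (chi-square per degree of freedom 2.95), so their agreement adds little. With those replicates averaged, the limma F-test between hairpins called 0 of all genes, against 38 in the main test. The F-test between hairpins, which tests the difference itself, gave a limma adjusted p of 0.0872 and did not pass. Its adjusted p ran from 0.00412 (DESeq2) to 0.332 over the alternatives.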

How the results depend on the processing

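The number of members called was 0 in the main test of every comparison. DESeq2 called 1 with shRARRES2_1, 2 with shRARRES2_2, 1 for the mean and 3 between hairpins, beside 3.26%, 2.28%, 0.866% and 4% of all genes. With 2 surrogate variables the calls were 1 (ENO1, lower), 2 (PGAM1 and PFKFB4) and 8 between hairpins, beside 1.05%, 1.56% and 9.37% of all genes, and the median log2 changes of the members were 0.0599, -0.0613, -0.0251 and, for the mean, 0.0370. Leaving out 1 library gave 0 to 1 member called with shRARRES2_2 (PFKFB4) and for the mean (PGAM1), both without shRARRES2_3 replicate 2, where 0.793% and 2.39% of all genes were called, and between hairpins (PFKFB3) without shRARRES2_2 replicate 2 (0.125% of all genes). It gave a median with shRARRES2_3 of 0.0306 to 0.659. Both of the next alternatives were added after seeing the data. Without both libraries with the fewest detected genes the median with shRARRES2_3 was 0.0306. Without both libraries with the lowest proliferation markers it was 0.645, and 1 member, PFKFB4, was called with shRARRES2_2 (0.196% of all genes). The causes were not tested. Over 26 alternatives, 70 of 132 fitted changes of a member changed sign at least once, none of them called under the alternative in which the sign differed. ENO1 with shRARRES2_1, called as lower with 2 surrogate variables, was above 0 with edgeR and DESeq2 (0.08 and 0.13). RARRES2 was lower under every alternative run, with log2 changes of -3.95 to -2.72.

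Same-numbered libraries of different groups deviated together in 11 of 18 pairs (r above 0.1, range -0.19 to 0.75). The largest values were 0.75 for shRARRES2_1 replicate 1 with shRARRES2_3 replicate 1 and 0.60 for shGFP replicate 2 with shRARRES2_3 replicate 2. Some libraries of unlike number did so too, such as shRARRES2_1 replicate 3 with shRARRES2_3 replicate 2 (0.48). The labels do not say that equal numbers pair samples, and the main test did not use them. Whether equal numbers mark shared handling was not tested. With a replicate block, 0 members were called in every comparison. No fit of the mean of the hairpins could be made with only the groups compared. Depth limits FBP1, ALDOC and ALDOA most, with 1, 181 and 863 reads in all libraries together.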
